A study of Mus musculus with 8 samples.

Results

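The genes examined were 8 that encode the synaptonemal complex and the chromosome axis of meiotic cells, namely Sycp1, Sycp2, Sycp3, Syce1, Syce2, Tex12, Hormad1 and Hormad2. Probe sets were taken by the gene symbol in the deposited table, and 7 of the 8 genes had a probe set of their own, 1 each, among 20665 genes with a main probe set. Hormad1 was measured only by a probe set that the annotation assigns also to 2 other entries, LOC675573 and OTTMUSG00000023281. Its values are therefore given beside the 7 genes and are not counted with them. The study asked which transcripts change in testis without CTCFL, a zinc finger protein related to CTCF that is made in the male germ line. Total RNA came from testes at postnatal day 23, with 1 Affymetrix Mouse430_2 array for each sample. Of the 8 arrays, 5 were labelled wildtype (replicates 1, 2, 4, 6 and 7) and 3 were labelled Ctcfl mutant (replicates 3, 5 and 8). In the study's text the mutants are homozygous for a deletion that reaches through exon 8 of Ctcfl (Ctcfl del/del), the controls are heterozygous littermates (Ctcfl del/+), and all mice were kept on a C57/Bl6 background. The labels call the controls wildtype, and that name is used here. Nothing in the labels says that each array is a separate animal, so p-values measure only the spread between these samples. The level of Ctcfl was not analysed here and could not serve as a check on the genotypes.

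The synaptonemal complex is the protein zipper that holds homologous chromosomes together along their length during meiotic prophase. Each chromosome first forms an axis, on which cohesin, SYCP2, SYCP3 and the HORMA-domain proteins HORMAD1 and HORMAD2 lie, and the axes become the lateral elements of the complex. SYCP1 forms the transverse filaments that bridge the axes, and SYCE1, SYCE2 and TEX12 belong to the central element where the filaments meet. HORMAD1 and HORMAD2 mark axes that are not synapsed and are removed from most of the axis once synapsis has formed. In testis these genes are transcribed mainly in primary spermatocytes, and mice without most of them fail in male meiosis.

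Of the RefSeq promoters (GRCm38.p6), the 250 bases before the start site are printed for 4 genes. Sycp1, Sycp3 and Hormad1 are shown because their pairs had the highest correlations over the arrays. Hormad1 was read there from its shared probe set, and none of these pairs reached an adjusted permutation p under 0.05. Sycp2, the gene of the SYCP3 partner in the axis, is shown because it alone held a CTCF-type sequence. Capitals mark matches to 3 motifs that were searched on both strands and chosen with these sequences in view. They were the E-box CACGTG, the E2F-type sequence GGCGGGAA and a core of the CTCF motif. No match overlapped a match of another motif. The windows are chr3:102936101-102936350 (minus strand) for Sycp1, chr10:88459337-88459586 (plus strand) for Sycp3, chr3:95559427-95559676 (plus strand) for Hormad1 and chr2:178407659-178407908 (minus strand) for Sycp2, and each sequence runs 5′ to 3′ along its gene.
Sycp1: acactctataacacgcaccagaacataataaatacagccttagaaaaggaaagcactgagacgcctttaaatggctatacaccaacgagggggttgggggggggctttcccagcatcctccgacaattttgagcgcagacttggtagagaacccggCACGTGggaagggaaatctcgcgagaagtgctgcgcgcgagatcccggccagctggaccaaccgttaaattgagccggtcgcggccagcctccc
Sycp3: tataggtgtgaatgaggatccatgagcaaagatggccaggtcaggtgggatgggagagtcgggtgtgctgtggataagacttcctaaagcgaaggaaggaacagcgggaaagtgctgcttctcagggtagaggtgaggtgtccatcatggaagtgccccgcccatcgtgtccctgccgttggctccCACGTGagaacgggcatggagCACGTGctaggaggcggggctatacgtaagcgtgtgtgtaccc
Hormad1: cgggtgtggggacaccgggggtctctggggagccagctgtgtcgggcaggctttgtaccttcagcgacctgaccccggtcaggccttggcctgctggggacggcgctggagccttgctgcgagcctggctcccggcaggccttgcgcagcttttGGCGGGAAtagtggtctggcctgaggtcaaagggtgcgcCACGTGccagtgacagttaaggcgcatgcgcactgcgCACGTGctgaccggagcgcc
Sycp2: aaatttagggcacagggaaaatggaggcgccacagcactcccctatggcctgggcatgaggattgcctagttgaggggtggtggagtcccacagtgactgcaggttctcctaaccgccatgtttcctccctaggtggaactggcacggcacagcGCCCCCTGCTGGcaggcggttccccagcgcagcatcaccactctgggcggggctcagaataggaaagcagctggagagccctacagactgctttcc
The E-box stood once before Sycp1, ending 89 bases before the start site, and at 2 places each before Sycp3 and Hormad1. Syce2 and Tex12 also had it, so that 5 of the 8 genes held an E-box, against 6.02% of 32851 RefSeq windows of the same length. Genes were counted if any of their windows matched (10 windows for the 8 genes), while the percentages are per window. The E2F-type sequence lay before Syce2, Tex12 and Hormad1, 3 of the 8 genes, against 1.86% of all windows. The CTCF core was found before Sycp2 alone of the 8 genes, on the opposite strand, with its last base 85 bases before the start site, against 0.816% of all windows. Syce1 and Hormad2 held none of the 3 motifs in this window. These matches are descriptions of the letters and no binding was measured.

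None of the 7 genes passed an adjusted p of 0.05 in mutant testis, and the clearest difference was a lower level of Sycp1, by 0.25 on the log2 scale. The other 6 genes differed by 0.15 or less. By limma with Benjamini-Hochberg adjustment over 45101 probe sets, 0 of the 7 passed, as did 0.0% of all probe sets, and each adjusted p was 1.0. At an unadjusted p under 0.05, 1 of the 7 passed (Sycp1), where 3.47% of all probe sets did. Sycp1 was also the only one of the 7 whose 3 mutant arrays all lay below the 5 wildtype arrays, a pattern shown by 1.31% of all probe sets. Mean levels of 5 of the 7 genes were lower in mutant testis and those of 2, Syce1 and Syce2, were higher. The median difference over the 7 was -0.095 on the log2 scale, beside 0.0032 over all probe sets, of which 48.5% were lower in mutant testis. That median rested partly on single arrays, being -0.033 without wildtype replicate 7 and -0.015 without mutant replicate 3.

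**Figure D1:**
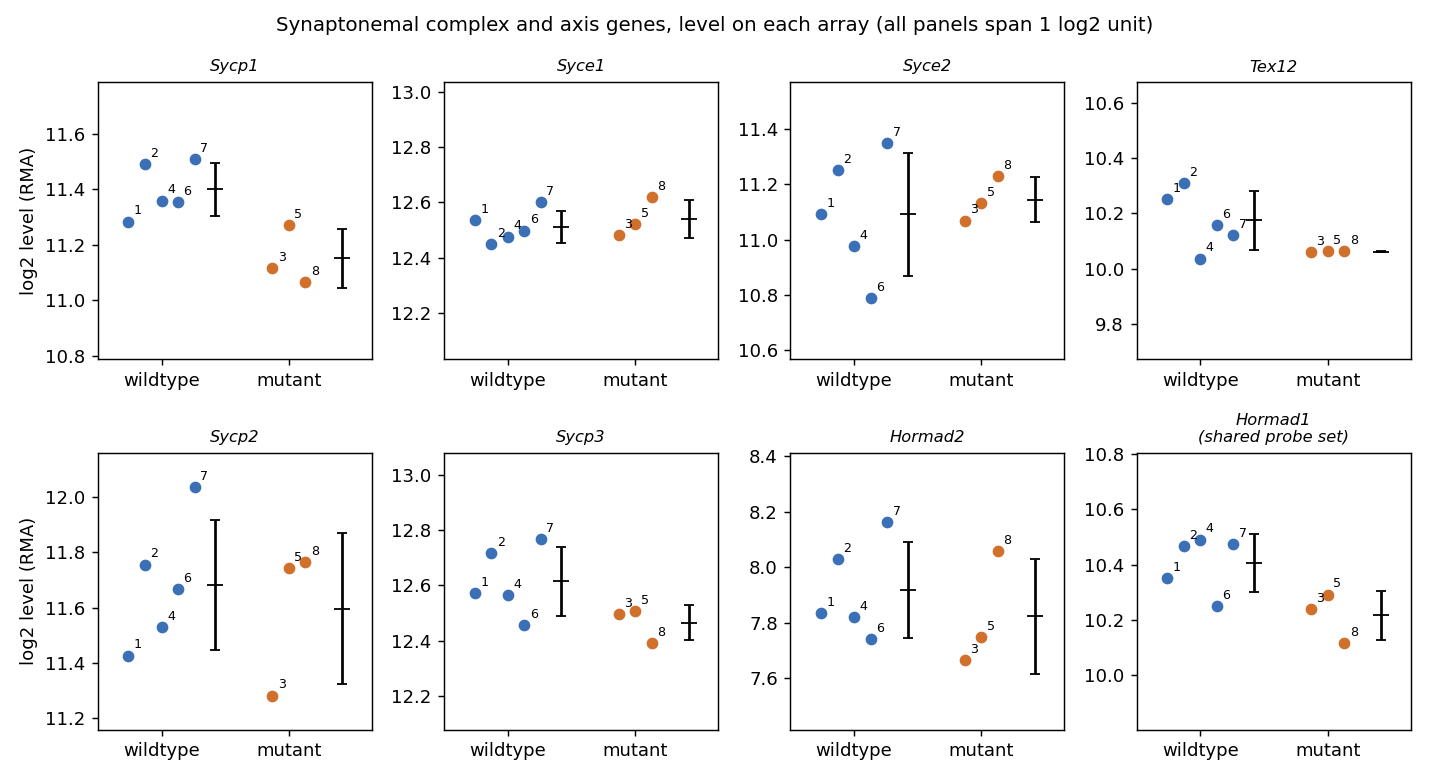
Log2 level (vertical axis, log2 units) of each gene on each array, with 5 wildtype and 3 mutant arrays as points numbered by replicate, and the group mean ± SD as a bar beside them, in panels that each span 1 log2 unit. The 3 mutant points of Sycp1 lie below all 5 wildtype points, from 11.06 to 11.27 against 11.28 to 11.51, and the groups overlap for the other genes.

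Levels of different probe sets are not compared with each other, since each has its own hybridisation. In bulk RNA, fewer spermatocytes and less RNA per spermatocyte cannot be told apart, which holds for each difference below. A list of 8 pachytene marker genes, such as Piwil1 and Ldhc, had a mean log2 level between 10.73 and 10.85 on the 8 arrays. That mean joins probe sets at levels from 5.63 (Mybl1) to 14.36 (Ldhc) and can hide a change of a single marker. Piwil1 had a difference of -0.17 (SE 0.084, an unadjusted limma p of 0.072). Of these markers, 6 were lower and 2 higher in mutant testis, with 0 of 8 at an unadjusted p under 0.05, and their median difference was -0.021. Over all probe sets 48.5% were lower and 3.47% had an unadjusted p under 0.05. Of 8 spermatogonia markers 7 were higher, with a median difference of 0.16, and 2 of them had an unadjusted p under 0.05. Their part in the results was not tested.

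A pair of arrays, wildtype replicate 7 and mutant replicate 8, differed from the rest in other cell types' transcripts. Over 10 spermatid markers their mean log2 levels were 10.98 and 10.55, in that order, against 8.38 to 9.12 on the other 6 arrays. Over 6 of 7 listed fat markers they were 7.57 and 7.42, against 5.04 to 6.0. Lep, the gene of the fat hormone leptin, was low on every array (3.82 to 4.05), whereas Adipoq, the gene of adiponectin, was 8.39 and 8.27 on these 2 arrays against 5.55 to 6.62. Crisp1, an epididymal transcript, reached 6.38 on mutant replicate 8 and 5.82 on wildtype replicate 1, against 3.17 to 3.34 elsewhere. Of the other listed epididymal markers, Adam7 was highest on mutant replicate 8 (5.61). Lcn5 and Lcn9 were highest on mutant replicate 5 (5.40 and 4.82), and Lcn8 on wildtype replicate 4 (5.68). On mutant replicate 3 the Leydig markers had a mean log2 level of 9.46, against 8.86 to 9.26 on the other 7 arrays, and the Sertoli and peritubular means were also the highest of all arrays (8.74 and 7.72). The part of these arrays in the results was not tested.

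Sycp1 encodes the transverse filament protein. Its log2 levels on wildtype replicates 1, 2, 4, 6 and 7 were 11.28, 11.49, 11.36, 11.36 and 11.51, and on mutant replicates 3, 5 and 8 they were 11.12, 11.27 and 11.06. The groups did not overlap, but the highest mutant array and the lowest wildtype array were close to each other. The wildtype mean was 11.40 ± 0.097 (SD, n = 5) and the mutant mean 11.15 ± 0.11 (SD, n = 3). The fitted difference, mutant minus wildtype, was -0.25 (SE 0.080, 95% interval -0.43 to -0.071), a linear ratio of 0.841 (0.744 to 0.952). Its unadjusted limma p was 0.011, the 233rd lowest of all probe sets, and its adjusted p was 1.0. Permuting the 8 arrays in every way (exact permutation test, two-sided) gave p = 0.0357, the smallest that 5 against 3 arrays can give. Without wildtype replicate 7 and mutant replicate 8 the difference was -0.18 (SE 0.090, an unadjusted limma p of 0.077), and between those 2 arrays it was -0.44. With the pair as a block in the fit it was -0.25 (SE 0.083, an unadjusted limma p of 0.012 and an adjusted limma p of 0.83).

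The 3 central element genes showed small differences in either direction. Syce1 had log2 levels of 12.54, 12.45, 12.48, 12.50 and 12.60 on the wildtype arrays and of 12.48, 12.52 and 12.62 on the mutant arrays, in the order above. It varied least of all the genes over the wildtype arrays, with an SD of 0.059, and its difference was 0.028 (SE 0.066, interval -0.12 to 0.17). The groups overlapped, with mutant replicate 8 the highest of all arrays, and without that array the difference was -0.011. It was 0.011 without wildtype replicate 7 and mutant replicate 8, 0.057 without mutant replicate 3 and 0.050 without wildtype replicate 7 alone.

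Syce2, whose product joins with TEX12 in the central element, had levels of 11.09, 11.25, 10.98, 10.79 and 11.35 on the wildtype arrays and of 11.07, 11.13 and 11.23 on the mutant arrays. Its wildtype arrays spread more widely (SD 0.22) than its mutant arrays (SD 0.081), and all mutant values lay within the wildtype range. The difference was 0.052 (SE 0.12, interval -0.22 to 0.32), and it ran from -0.024 without wildtype replicate 6, the lowest array, to 0.12 without wildtype replicate 7, the highest. It was 0.0086 without mutant replicate 8 and 0.089 without mutant replicate 3. Tex12 had levels of 10.25, 10.31, 10.04, 10.16 and 10.12 on the wildtype arrays and 10.06 on each of the 3 mutant arrays. The mutant arrays were nearly equal (SD 0.0024), and wildtype replicate 4 lay just below them. The difference of Tex12 was -0.11 (SE 0.074, interval -0.28 to 0.053, exact permutation p = 0.143).

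The products of the 2 axis genes Sycp2 and Sycp3 bind each other in the lateral element. Both genes had a lower mean in mutant testis, with overlapping groups. Sycp3 had levels of 12.57, 12.72, 12.56, 12.46 and 12.77 on the wildtype arrays and of 12.50, 12.51 and 12.39 on the mutant arrays. Its mutant arrays lay at the low end of the wildtype range, overlapping with wildtype replicate 6. The means were 12.62 ± 0.13 (SD, n = 5) and 12.47 ± 0.064 (SD, n = 3), and the difference was -0.15 (SE 0.083, interval -0.34 to 0.035), with an exact permutation p of 0.107. Without wildtype replicate 7 and mutant replicate 8 it was -0.076 (SE 0.090).

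Sycp2 had levels of 11.43, 11.76, 11.53, 11.67 and 12.04 on the wildtype arrays and of 11.28, 11.74 and 11.77 on the mutant arrays. It covered the widest range of the 8 genes, 0.754 on the log2 scale, with mutant replicate 3 lowest and wildtype replicate 7 highest. The difference was -0.086 (SE 0.15, interval -0.43 to 0.25). Its direction turned when a single array was left out, to 0.0023 without wildtype replicate 7 and to 0.071 without mutant replicate 3, while it was -0.17 without mutant replicate 8.

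The HORMA-domain genes were lower on average in mutant testis, with overlapping groups. Hormad2 had levels of 7.83, 8.03, 7.82, 7.74 and 8.16 on the wildtype arrays and of 7.66, 7.75 and 8.06 on the mutant arrays, and its difference was -0.095 (SE 0.12, interval -0.36 to 0.17). It was -0.21 without mutant replicate 8, the highest of the 3 mutant arrays, and -0.015 without mutant replicate 3, the lowest. Without wildtype replicate 7 it was -0.033, and without that array and mutant replicate 8 it was -0.15 (SE 0.096). The probe set that Hormad1 shares with other entries had levels of 10.35, 10.47, 10.49, 10.25 and 10.47 on the wildtype arrays and of 10.24, 10.29 and 10.12 on the mutant arrays. Only wildtype replicate 6 lay within the mutant range. The difference was -0.19 (SE 0.079, interval -0.37 to -0.014), with an unadjusted limma p of 0.037, an adjusted p of 1.0 and an exact permutation p of 0.0714. Without wildtype replicate 7 and mutant replicate 8 it was -0.12 (SE 0.092).

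**Figure D2:**
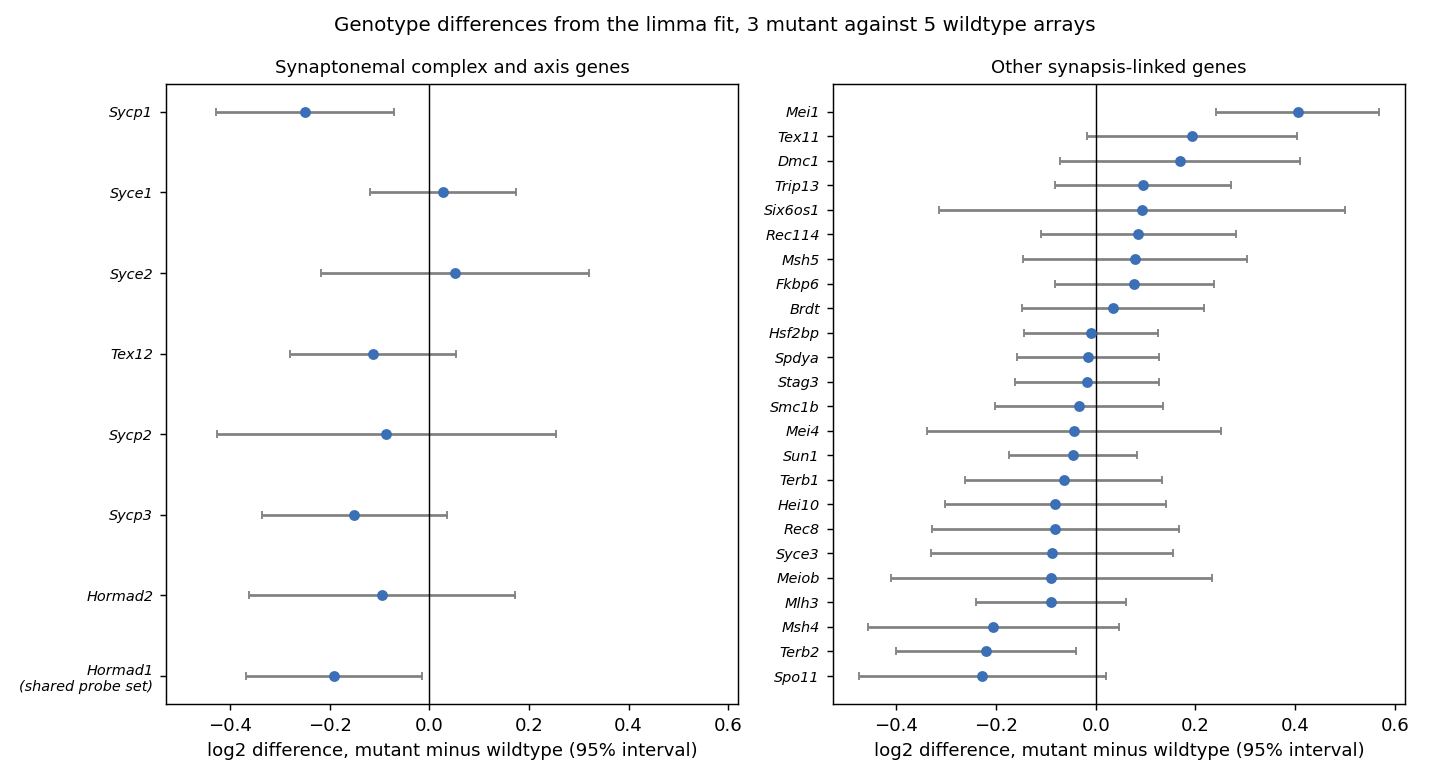
Difference in log2 level, mutant minus wildtype (horizontal axis), from the limma fit, with 95% intervals as bars, for the 8 genes (left) and for 24 other genes of synapsis and recombination (right). On the left, the intervals of Sycp1 (-0.43 to -0.071) and of the shared Hormad1 probe set (-0.37 to -0.014) lie below 0 before adjustment, and the other 6 include 0, while on the right those of Mei1 and Terb2 leave out 0.

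The range over the 5 wildtype arrays was wider than the difference between the groups for 6 of the 7 genes, Sycp1 being the exception. Wildtype replicate 7 had the highest wildtype level of 6 genes, Sycp1, Sycp2, Sycp3, Syce1, Syce2 and Hormad2. Mutant replicate 8 was the lowest of all 8 arrays for Sycp1, Sycp3 and the shared Hormad1 probe set. On the same array Syce1 was the highest of all, and Sycp2 and Hormad2 were exceeded only on wildtype replicate 7. Relative to the wildtype means, the levels on mutant replicate 8 ran from -0.34 for Sycp1 to 0.14 for Hormad2 and Syce2.

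**Figure D3:**
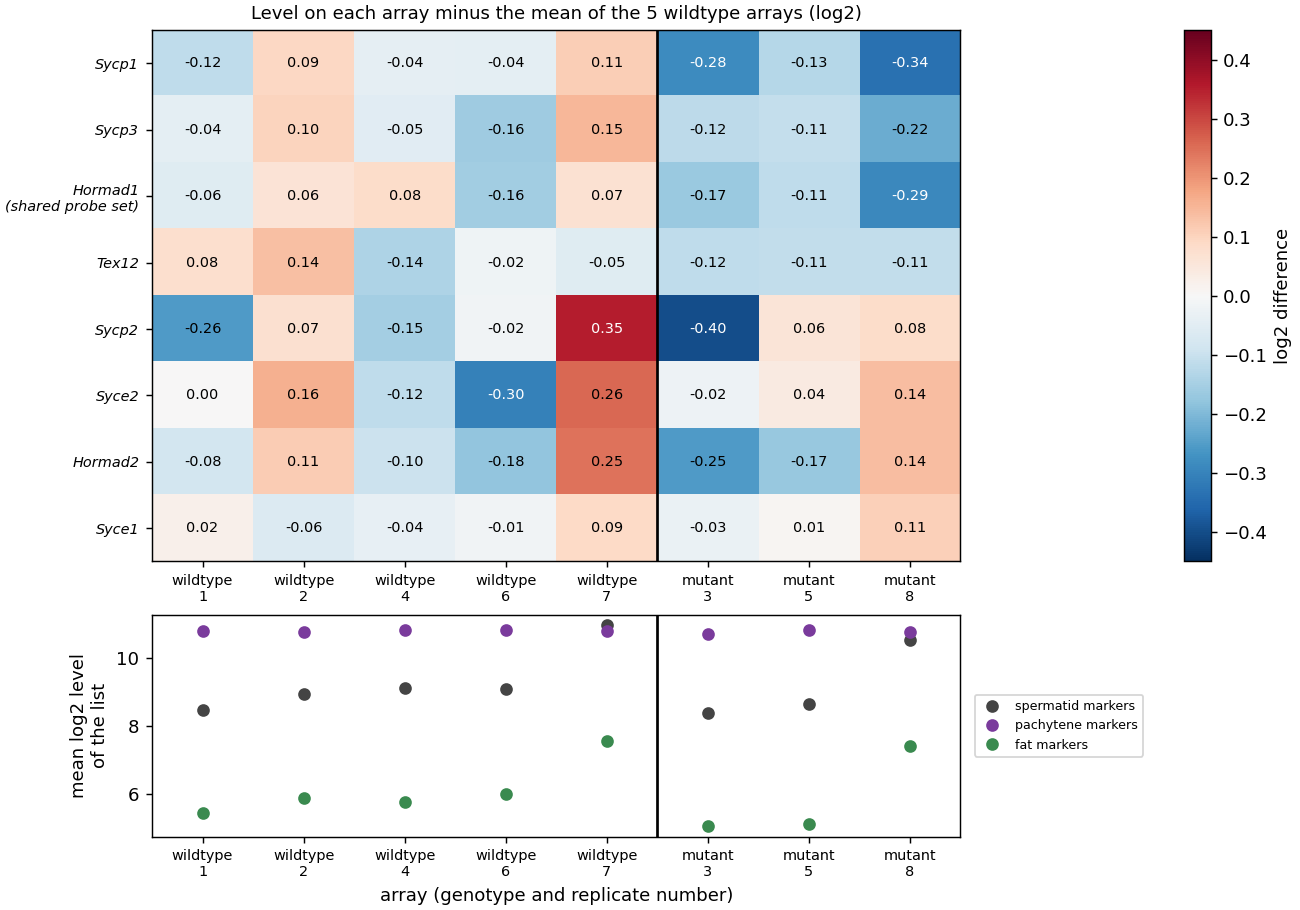
Upper panel, log2 level on each array minus the mean of the 5 wildtype arrays, by gene, in colour and digits. Lower panel, mean log2 level of the spermatid, pachytene and fat marker lists on the same arrays, where wildtype replicate 7 and mutant replicate 8 are high for spermatid and fat markers. The mean of the pachytene list lies between 10.73 and 10.85.

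Pairs of genes were then compared over the 8 arrays, both genotypes together. Of 28 pairs, 24 had a Pearson r above 0, with a median of 0.456. The share above 0 was not taken for pairs of other genes, so this count is a description only. The pairs share the arrays and their genotypes, and 0 of 28 reached an adjusted permutation p under 0.05. The closest were Sycp3 and the shared Hormad1 probe set (r = 0.870, exact permutation p = 0.00352, adjusted over 28 pairs 0.0796, with Spearman's rho = 0.833, exact permutation p = 0.0154, adjusted 0.152). Leaving out the 2 arrays farthest from the median of Sycp3 gave r = 0.895, and leaving out wildtype replicate 7 and mutant replicate 8 gave 0.792.

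Sycp1 followed Sycp3, with r = 0.851 (exact permutation p = 0.00774, adjusted 0.0796) and rho = 0.810 (exact permutation p = 0.0218, adjusted 0.152). It was 0.844 without the 2 arrays farthest from the median of Sycp1 and 0.672 without wildtype replicate 7 and mutant replicate 8. Sycp1 and the shared Hormad1 probe set had r = 0.859 (exact permutation p = 0.00853, adjusted 0.0796) and rho = 0.857 (exact permutation p = 0.0107, adjusted 0.152), with 0.673 and 0.702 after the same omissions. These 3 are the genes that were lowest on mutant replicate 8. With the mean of each genotype subtracted, r was 0.783 for Sycp3 and the shared Hormad1 probe set. It was then 0.767 for Sycp1 and Sycp3, and 0.667 for Sycp1 and the shared Hormad1 probe set. Over the 5 wildtype arrays alone, the closest pairs were Syce2 with Sycp3 (0.981) and Sycp3 with Hormad2 (0.978). Over all 8 arrays Sycp2 and Hormad2 had r = 0.782 (exact permutation p = 0.0153, adjusted 0.0864) and rho = 0.786 (exact permutation p = 0.0279, adjusted 0.156). For these 2 genes r was 0.773 with the mean of each genotype subtracted and 0.825 over the 5 wildtype arrays alone. It was 0.407 without the 2 arrays farthest from the median of Sycp2, an omission that also narrows the range of Sycp2. Without wildtype replicate 7 and mutant replicate 8 it was 0.522. Sycp2 with Sycp1 had r = 0.524 over the 8 arrays and 0.759 without that pair. Syce2 and Hormad2 had r = 0.773 (exact permutation p = 0.0154, adjusted 0.0864) and rho = 0.810 (exact permutation p = 0.0218, adjusted 0.152), with r = 0.738 without the 2 arrays farthest from the median of Syce2 and 0.556 without wildtype replicate 7 and mutant replicate 8. Over all 8 arrays Syce1 had the 4 negative values, with Sycp1 (-0.257), Sycp3 (-0.117), Tex12 (-0.285) and the shared Hormad1 probe set (-0.363). These signs depended on the arrays, since without wildtype replicate 7 and mutant replicate 8 all 7 pairs of Syce1 were negative (-0.525 to -0.121), while over the 5 wildtype arrays only that with Tex12 was (-0.250).

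**Figure D4:**
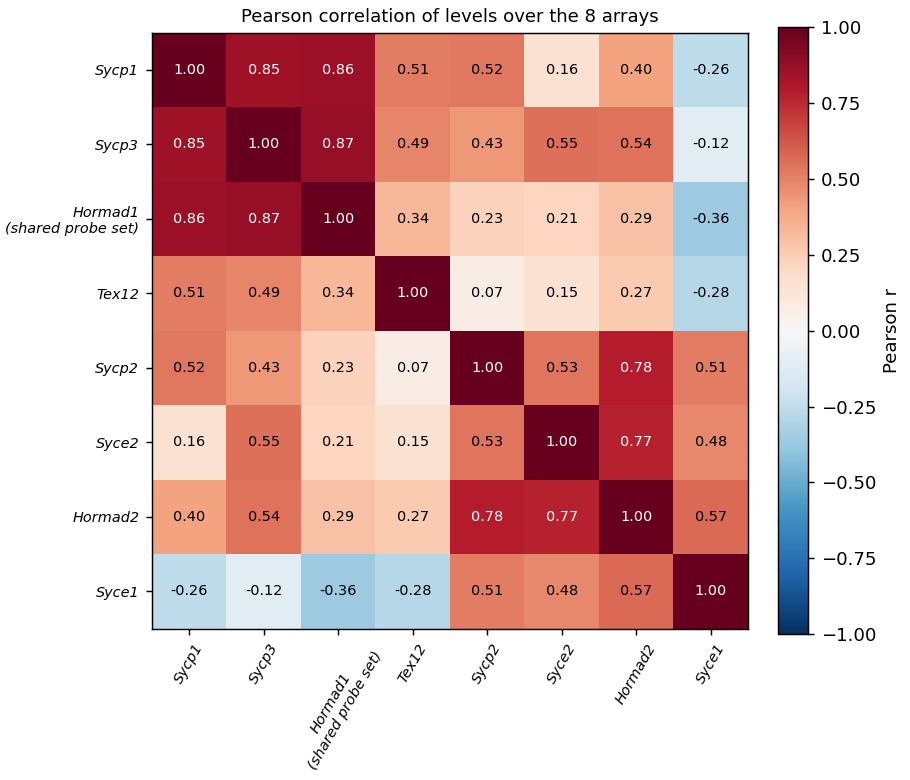
Pearson r over the 8 arrays for each pair of the 8 genes, in colour and digits. Sycp1, Sycp3 and the shared Hormad1 probe set lie between 0.851 and 0.870 with each other, and the negative values over these arrays are all pairs with Syce1.

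Among 12295 other genes whose main probe set lay above the median level, the ones closest to the mean of the 7 genes were Ap3s1 (r = 0.987), Atp11b (0.961), Dmxl2 (0.945), Zfp326 (0.942) and Zwilch (0.939), each over 8 arrays and picked as the highest values. In all, 43 had an r above 0.9. Ap3s1, a subunit of the adaptor complex AP-3, ranged from 11.15 on mutant replicate 3 to 11.48 on wildtype replicate 7. The mean of the 7 genes was likewise lowest on mutant replicate 3 (10.88) and highest on wildtype replicate 7 (11.22).

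The wider machinery was read from 30 other genes of synapsis, meiotic cohesin, recombination and telomere attachment, of which 24 had a probe set of their own. Mean levels were higher for 9 and lower for 15 in mutant testis, with a median difference of -0.026 against 0.0032 over all probe sets. None of the 24 passed an adjusted limma p of 0.05, and at an unadjusted p under 0.05 there were 2, Mei1 and Terb2, where 3.47% of all probe sets passed. The direction of the median turned without wildtype replicate 7 and mutant replicate 8 (0.017) and without mutant replicate 3 (0.0039).

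Mei1, needed for the double-strand breaks that start meiotic recombination, had a higher mean in mutant testis. Its log2 levels were 6.80, 6.86, 6.88, 6.96 and 6.90 on the wildtype arrays and 7.27, 7.17 and 7.41 on the mutant arrays. The groups did not overlap, and all 3 mutant arrays lay above all wildtype arrays for 1.38% of all probe sets. The difference was 0.40 (SE 0.073), with an unadjusted limma p of 0.000266 and an adjusted p of 1.0, and it lay between 0.34 and 0.46 with any single array left out. Tex11, which acts in synapsis and crossover formation, followed with 0.19 (SE 0.094, an unadjusted limma p of 0.069), and Dmc1, the meiotic strand exchange protein, with 0.17 (SE 0.11, an unadjusted limma p of 0.15). Without wildtype replicate 7 and mutant replicate 8 these were 0.29 for Tex11 and 0.27 for Dmc1, and Dmc1 was 0.083 without mutant replicate 5 and 0.11 without wildtype replicate 1. The early spermatocyte markers, a list of 7, were higher for 4 and lower for 3. That list mostly repeats the genes above, since Mei1, Dmc1, Spo11, Meiob and Msh5 are in both and only Stra8 and Prdm9 are not.

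On the lower side, Terb2, part of the complex that attaches meiotic telomeres to the nuclear envelope, had levels of 8.63, 8.65, 8.45, 8.47 and 8.61 on the wildtype arrays and of 8.46, 8.21 and 8.35 on the mutant arrays. Mutant replicate 3 lay within the wildtype range and the other two mutant arrays below it. The difference was -0.22 (SE 0.081), with an unadjusted limma p of 0.022 and an adjusted p of 1.0. Spo11, the enzyme that makes the breaks, had a difference of -0.23 (SE 0.11, an unadjusted limma p of 0.068). Without mutant replicate 3, its lowest array, Spo11 had -0.100. Msh4, a crossover protein, had -0.21 (SE 0.11, an unadjusted limma p of 0.098). Of the further central element genes, Syce3 had a difference of -0.088 (SE 0.11) and Six6os1 of 0.093 (SE 0.18). The other probe sets of Six6os1 had 0.27 and 0.21, at mean log2 levels of 5.04 and 5.43. The meiotic cohesin genes Rec8, Smc1b and Stag3 had -0.081 (SE 0.11), -0.034 (SE 0.076) and -0.018 (SE 0.064).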

How the data were processed

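Testis RNA of 5 wildtype and 3 Ctcfl mutant samples was measured on 1 array each, and the sample titles gave the group and the replicate number. Per the study's methods, the authors normalised and background-corrected the scanned arrays by RMA, and the deposited table of all arrays holds log2 levels per probe set and array. RMA draws the arrays to a common distribution (array medians 6.40 to 6.45), so differences are relative to the rest of the transcriptome. Columns of the authors' own comparisons (fold changes, p-values) were not used.

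All 45101 probe sets, 64 controls included, were fitted by genotype without a filter in limma 3.58.1 under R 4.3.3 (lmFit, then eBayes), and two-sided p-values were adjusted by Benjamini-Hochberg. The fit was tested on simulated data. Single genes were also tested by exact permutation of the 8 arrays with scipy 1.17.1 (Python 3.11.15, numpy 2.4.6, pandas 2.3.3, matplotlib 3.10.9). The number of arrays limits the precision. Names came from Entrez IDs through RefSeq for 33571 probe sets and from the table for 3594, while 1952 matched several genes and 5984 none. The main probe set of a gene has no cross-hybridisation suffix where possible, then the highest mean.

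The genes, lists and tests were chosen with earlier results of these data known. Named were all 8 genes, the 3 lowest p per direction among the 24 further genes of synapsis and recombination, the 5 genes closest by correlation, and, added for their role after their values were seen, Syce3, Six6os1, Rec8, Smc1b and Stag3. Spdya was named for the p of its other probe set, also after its values were seen. Marker lists were read for spermatogonia, early spermatocyte, pachytene, spermatid, Sertoli, Leydig, peritubular, macrophage, endothelium, fat and epididymis. Alternatives were leaving out each array, leaving out or blocking wildtype replicate 7 with mutant replicate 8, a filter at the median level, 3 other normalisations, 3 other variance models, all probe sets of a list and other thresholds. Leaving out the control probe sets and adding the shared Hormad1 probe set were chosen after seeing the data.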

Additional observations from a re-analysis of the deposited data

Results flagged for a closer look

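Over the 5 wildtype arrays, 21 measures were examined by Dixon's ratio (critical value 0.71). The ratio is the gap between an outermost array and its neighbour, over the range. It passed the critical value for 3 measures, where chance alone would give about 1.05, counting any of the 5 arrays. The lists were chosen with earlier results known, so this count is a description. Each time the array was wildtype replicate 7, which lay far above the other 4. The mean log2 level of the spermatid markers was 10.98 on it and at most 9.12 on the others. The mean of the fat markers was 7.57 against at most 6.0, and that of the Leydig markers was 9.26 against at most 8.90, below the 9.46 of mutant replicate 3. None of the 7 genes, nor the shared Hormad1 probe set, had a wildtype array that stood apart in this way.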

How the results depend on the processing

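The count of 0 of 7 genes past an adjusted limma p of 0.05 was 0 under all 19 alternatives. The count of 1 at an unadjusted p under 0.05 (3.47% of all probe sets) was 0 without wildtype replicate 7 and mutant replicate 8 (6.55%). It was 2 with an intensity trend and a robust prior (3.32%), and 1 to 2 when single arrays were left out (2.71% to 5.87%). Sycp1 lay between -0.31 and -0.18, Sycp3 between -0.19 and -0.076, Tex12 between -0.15 and -0.079, and the shared Hormad1 probe set between -0.23 and -0.12 in every alternative, and the lowest adjusted p of these was 0.785, for Sycp1. The directions of Syce1, Syce2 and Sycp2 turned with 1 array left out. Syce1 ran from -0.011 to 0.057, Syce2 from -0.024 to 0.12, and Sycp2 from -0.17 to 0.071, with 0.0023 without wildtype replicate 7. The median of the 24 further genes was 0.017 without wildtype replicate 7 and mutant replicate 8, 0.0021 with each array centred on the pachytene markers, and -0.033 to 0.0039 with single arrays left out. The causes were not tested. No paired analysis was possible, because the labels give no litter and their replicate numbers are a running count over both genotypes. Any shared litter is therefore not modelled. Other probe sets of the 7 genes were not run, since each has 1.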

Other observations

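Of the remaining marker lists, 6 of 7 Sertoli genes and 4 of 5 Leydig genes had higher means in mutant testis, with median log2 differences of 0.097 and 0.14. So did 4 of 5 peritubular, 4 of 5 macrophage and 3 of 5 epididymal genes, with medians of 0.073, 0.010 and 0.16. The peritubular and macrophage genes that were lower, Acta2 and Cd163, had mean log2 levels of 4.35 and 4.12, below the array medians (6.40 to 6.45). In the spermatid, fat and endothelial lists 1 of 10, 1 of 6 and 1 of 4 genes were higher, with medians of -0.13, -0.10 and -0.0036. The early spermatocyte list had a median of 0.079. Over all probe sets 48.5% were lower in mutant testis. None of the listed genes passed an adjusted limma p of 0.05. At an unadjusted limma p under 0.05 there were 1 Sertoli, 1 Leydig, 1 early spermatocyte and 2 epididymal genes, all higher in mutant testis. Of all probe sets 3.47% passed that p. The early spermatocyte gene was Mei1, already given above. The epididymal genes, Lcn5 and Lcn9, had mean log2 levels of 5.08 and 4.65, also below the array medians. The Sertoli, Leydig and peritubular means were highest on mutant replicate 3 (8.74, 9.46 and 7.72). On mutant replicate 8 these means lay within the wildtype range (8.55, 8.91 and 7.48).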
